A study of Arabidopsis thaliana with 16 samples.

Results

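*AT1G33055*, *AT5G10040* and *AT3G29970* are protein-coding genes of Arabidopsis known for induction when oxygen runs short. They were chosen by their signals at 1 stage of somatic embryogenesis, day 7 of induction (D7I), where tissues of the ascorbate-deficient mutant *vtc2* had more of these transcripts than wild-type (WT) tissues. Each has 1 probe set on the ATH1 GeneChip, and they are 3 of the 13355 genes that the annotation used here pairs with a probe set. The D7I difference between genotypes therefore chose the genes and is given as a description. The differences at the other 3 stages did not single the genes out, but the choice was made with earlier results of these data known.

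Plant cells that lack oxygen cannot run mitochondrial respiration at full rate, and they turn to fermentation, which regenerates the electron acceptor that glycolysis needs. The transcripts that rise in this state form a small shared set in seedlings, roots and shoots. Group VII ERF transcription factors control them. In air these factors are oxidized at their N-terminus by plant cysteine oxidases and degraded, and in low oxygen they persist and activate their targets. The set includes enzymes of fermentation such as pyruvate decarboxylase, regulators such as *HRA1*, which limits the activity of such an ERF factor, and many small proteins whose biochemical role is not settled. The annotation used here gives the 3 genes no name beyond the locus code.

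Each of 8 groups had 2 arrays, called biological replicates in the labels, and 3 μg of RNA went into the labelling for an array. The groups are *vtc2* and WT (ecotype Col-0) at 4 stages. These are zygotic embryos at the bent-cotyledon stage (ZE), explants on induction medium with the auxin 2,4-D after 7 d (D7I) and 14 d (D14I), and mature somatic embryos (SE) collected at 14 d of maturation without 2,4-D. The zygotic embryos were dissected by hand and served as the explants, so that D7I and D14I tissues hold explant and callus together. The mutant is 1 T-DNA insertion line, named *vtc2-5* in the methods, and the labels do not say how many explants or embryos went into an array.

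Signals are linear intensities that the authors scaled to a 2% trimmed mean of 500 on every array. Medians of the arrays lay between 148 and 199. A signal below 30 is called weak here, and 69.2 to 78.1% of the probe sets of an array exceeded it. Replicate arrays correlated at 0.922 to 0.962 across probe sets (log2 signal). The WT SE pair was the lowest, and the results that rest on 1 of its arrays are given with and without it. *VTC2* was not analysed here, so that the mutation was not checked on the arrays. Of the seed coat markers, *BAN*, a proanthocyanidin gene of the seed coat, was the 1 of 4 with a probe set in the annotation used here. Its signals were 262 and 108 in *vtc2* ZE against 200 and 532 in WT ZE, and at most 15.4 on every later array. *BAN* thus moved with the differences between ZE and later stages, and its part in them was not tested. The 11 listed seed storage genes have none in this annotation and were not analysed here.

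*AT1G33055* had its lowest signals at D7I in both genotypes. In *vtc2* its signals were 3327 and 2380 in ZE, 1654 and 1554 at D7I, 4493 and 4469 at D14I, and 16967 and 12210 in SE. In WT they were 3628 and 4473 in ZE, 219 and 117 at D7I, 5693 and 5063 at D14I, and 4904 and 5923 in SE. The WT D7I arrays were thus the lowest of all 16 and the *vtc2* SE arrays the highest. Ordered by mean, the WT groups ran D7I, ZE, D14I and SE. The neighbours ZE and D14I did not overlap, while D14I and SE did.

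*AT5G10040* was weak or near it in ZE of both genotypes, and near it in WT at D7I, and followed another course. In *vtc2* its signals were 39.0 and 12.2 in ZE, 393 and 364 at D7I, 685 and 906 at D14I, and 1213 and 1109 in SE. In WT they were 18.8 and 41.0 in ZE, 34.8 on both arrays at D7I, 847 and 842 at D14I, and 216 and 290 in SE. Both WT D7I arrays lay within the range of the WT ZE arrays, whereas both *vtc2* D7I arrays lay above every array of ZE and above both WT SE arrays.

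*AT3G29970* was close to the limit of the array in ZE and highest at D14I in both genotypes. In *vtc2* its signals were 2.20 and 10.7 in ZE, 727 and 530 at D7I, 4505 and 5057 at D14I, and 2211 and 1808 in SE. In WT they were 19.6 and 2.16 in ZE, 140 and 146 at D7I, 4650 and 3486 at D14I, and 179 and 1519 in SE. Outside ZE, the WT SE arrays had the largest ratio between the replicates of a group. The first of them lay near the WT D7I arrays and the second near those of *vtc2* SE.

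**Figure D1:**
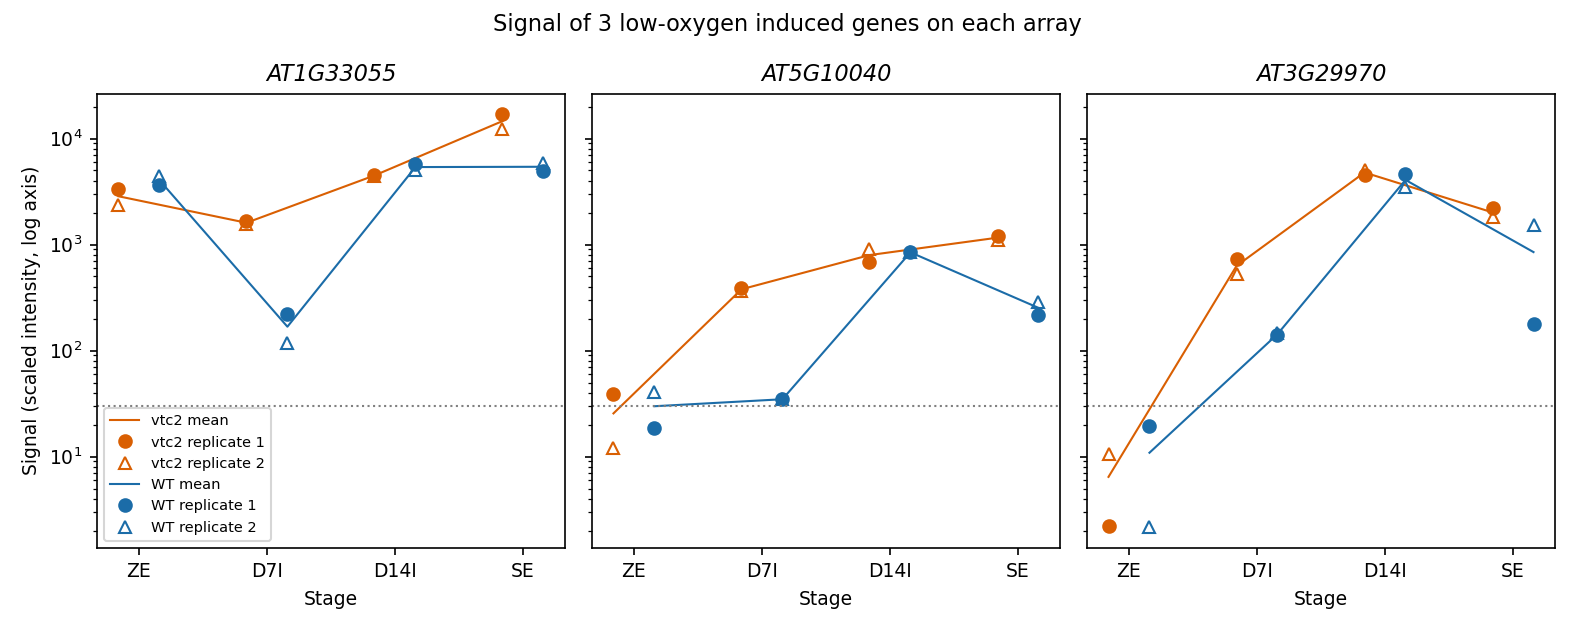
Signal of *AT1G33055*, *AT5G10040* and *AT3G29970* on each of the 16 arrays (scaled intensity, log axis) by stage, with *vtc2* left of WT, filled circles for replicate 1, open triangles for replicate 2 and lines through the group means. The dotted line marks a signal of 30. At D7I all *vtc2* arrays lie above the WT arrays, and at D14I the genotypes lie close together, with *AT1G33055* at 4493 and 4469 in *vtc2* against 5693 and 5063 in WT. Levels of different genes come from different probe sets and are not comparable.

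At D7I, the stage that chose the genes, *AT1G33055* averaged 1604 ± 70.5 in *vtc2* and 168 ± 72.4 in WT (SD, n = 2 each here and throughout), a log2 difference of 3.32 (standard error 0.30). *AT5G10040* averaged 378.5 ± 19.8 in *vtc2* and 34.8 ± 0.0107 in WT, with a log2 difference of 3.44 (standard error 0.50). *AT3G29970* averaged 629 ± 139 in *vtc2* and 143 ± 4.36 in WT, with a log2 difference of 2.12 (standard error 1.15). The arrays of the genotypes did not overlap for 3 of 3 genes. This was also true of 56.1% of all probe sets, 2.70% were called by the thresholds of the methods (adjusted p under 0.05 and at least 2-fold), and nothing is read from these counts because the choice fixed them. In a bulk tissue, fewer cells that hold a transcript and less transcript per cell cannot be told apart, here or in any comparison that follows.

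The signals of *vtc2* at D7I lay between those of WT at D7I and WT at D14I for each of the 3 genes. The log2 difference of *vtc2* D7I from WT D14I was -1.74 for *AT1G33055*, -1.16 for *AT5G10040* and -2.70 for *AT3G29970*, and the arrays did not overlap for any of them, as for 60.3% of all probe sets. From D7I to D14I the 3 genes differed by 1.48, 1.06 and 2.94 on the log2 scale in *vtc2*, in the same gene order, and by 5.07, 4.60 and 4.82 in WT (D14I minus D7I). These differences share the D7I arrays and are descriptions as well.

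Whether the difference between genotypes was present before induction was asked with the ZE arrays. None of the 3 genes was called there. A call here needs a Benjamini-Hochberg adjusted p under 0.05 from limma over 22746 probe sets together with the 2-fold difference. By this rule 0.0352% of probe sets were called in ZE, and 1558 had an unadjusted p under 0.05. *AT1G33055* averaged 2854 ± 670 in *vtc2* ZE and 4051 ± 598 in WT ZE, a log2 difference of -0.52 with a 95% interval of -1.20 to 0.16 (adjusted p = 0.839). Both *vtc2* ZE arrays lay below both WT ZE arrays for this gene, 1 of the 3, and the arrays did not overlap for 33.2% of all probe sets. The differences were -0.35 (-1.46 to 0.76, adjusted p = 0.981) for *AT5G10040* and -0.43 (-3.01 to 2.16, adjusted p = 0.998) for *AT3G29970*. Intervals apply to a single probe set and are not adjusted. The ZE signals of *AT5G10040* and *AT3G29970* are weak or near it, and their intervals reach beyond 2-fold, for *AT3G29970* in both directions and for *AT5G10040* toward lower signals in *vtc2*.

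At D14I none of the 3 genes was called between genotypes either, with 0.0220% of all probe sets called and 1024 at an unadjusted p under 0.05. *AT1G33055* averaged 4481 ± 16.8 in *vtc2* and 5378 ± 445 in WT, and its log2 difference was -0.26 (-0.94 to 0.42, adjusted p = 1). The interval for this gene excludes a 2-fold difference in either direction. *AT5G10040* averaged 795 ± 156 in *vtc2* and 844 ± 3.59 in WT, a difference of -0.10 (-1.21 to 1.01, adjusted p = 1). *AT3G29970* averaged 4781 ± 390 in *vtc2* and 4068 ± 823 in WT, a difference of 0.25, and its interval of -2.34 to 2.83 is wide (adjusted p = 1). The arrays of the genotypes were apart for *AT1G33055* and overlapped for the other two, beside 41.0% of probe sets that were apart.

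In mature somatic embryos *AT1G33055* and *AT5G10040* were higher in *vtc2* than in WT and passed the test, and *AT3G29970* did not pass. Of all probe sets 3.84% were called at this stage, and 1.69% as higher in *vtc2*. *AT1G33055* averaged 14589 ± 3364 in *vtc2* SE and 5413 ± 721 in WT SE, a log2 difference of 1.42 (0.74 to 2.10, adjusted p = 0.0313 from limma). *AT5G10040* averaged 1161 ± 74.1 in *vtc2* SE and 253 ± 52.2 in WT SE, a difference of 2.21 (1.10 to 3.33, adjusted p = 0.0350). The arrays of the genotypes did not overlap for 3 of 3 genes, as for 51.3% of probe sets. The median probe set had a log2 difference of -0.15 at this stage.

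Both of these calls rest on few arrays. For *AT1G33055* the call was lost without either *vtc2* SE array (adjusted p = 0.159 without replicate 1 and 0.0649 without replicate 2) and without WT SE replicate 1 (0.115). It was also lost by a narrow margin without any 1 of the D14I arrays or of the *vtc2* D7I arrays (0.0519 to 0.0537), which enter through the shared estimate of the spread. For *AT5G10040* the adjusted p was 0.152 and 0.104 without *vtc2* SE replicate 1 and replicate 2, 0.127 without WT SE replicate 1, and 0.0551 to 0.0576 without 1 of the D14I or *vtc2* D7I arrays. The log2 difference itself stayed between 1.18 and 1.65 for *AT1G33055* and between 2.00 and 2.42 for *AT5G10040* in the 16 fits that left out 1 array. With quantile normalization it was 0.89 for *AT1G33055* (adjusted p = 0.107), under 2-fold and not called. Array weights ended both calls (adjusted p = 0.0972 for *AT1G33055* and 0.0980 for *AT5G10040*). With them 0.409% of all probe sets were called at this stage, against 3.84% without them. The replicate number as a block ended the call of *AT5G10040* (0.0513). A fit of the compared groups only had neither call (0.360 and 0.353), but it called 0% of all probe sets, so that no gene could keep its call there.

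*AT3G29970* averaged 2009 ± 285 in *vtc2* SE and 849 ± 947 in WT SE. Its log2 difference was 1.94, with an interval of -0.65 to 4.52 (adjusted p = 0.330), and 1 array decided its size. The difference was 0.40 without WT SE replicate 1 and 3.48 without WT SE replicate 2, and it was called in neither case (adjusted p = 0.883 and 0.0928).

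Whether the genotype difference in SE departed from that at the other stages was tested as a difference of differences. For SE against D14I it was 1.68 for *AT1G33055* (adjusted p = 0.115), 2.31 for *AT5G10040* (0.159) and 1.69 for *AT3G29970* (0.639), and 0.101% of probe sets were called. For SE against ZE it was 1.93 (0.0775), 2.56 (0.109) and 2.36 (0.454) in the same gene order, with 0.576% of probe sets called. None of the 3 genes passed in either comparison. A call in SE and none at D14I or ZE is therefore not a tested difference between those stages.

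**Figure D2:**
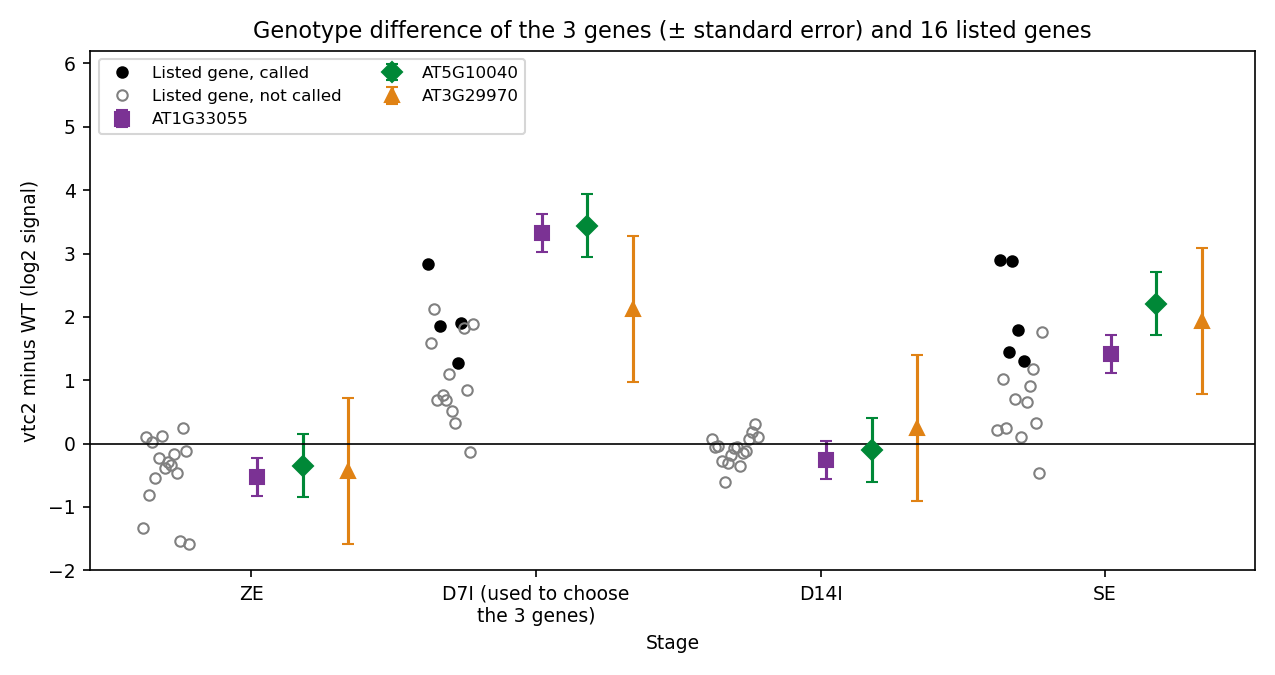
Difference between genotypes (*vtc2* minus WT, log2 signal) at each stage. Coloured symbols with bars give *AT1G33055*, *AT5G10040* and *AT3G29970* with their standard errors, and circles give the 16 other low-oxygen genes analysed, filled where called. The differences of the 3 genes at D7I chose them, and those in SE are 1.42, 2.21 and 1.94 against -0.26, -0.10 and 0.25 at D14I.

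The change over the culture within a genotype was then compared between the stages whose differences were not used for the choice. *AT5G10040* and *AT3G29970* were far higher at D14I than in ZE in both genotypes, and *AT1G33055* was not called. Between these stages 32.9% of all probe sets were called in *vtc2* and 32.8% in WT, so that calls are common. For *AT5G10040* the log2 difference (D14I minus ZE) was 5.18 in *vtc2* (4.06 to 6.29, adjusted p = 2.64e-05) and 4.93 in WT (3.82 to 6.04, adjusted p = 3.63e-05). For *AT3G29970* it was 9.94 in *vtc2* (adjusted p = 9.05e-05) and 9.27 in WT (adjusted p = 0.000141). These sizes depend on ZE signals that are weak or near it. With 30 added to every signal before log2 they were 3.92 in *vtc2* and 3.89 in WT for *AT5G10040*, and 7.05 in *vtc2* and 6.67 in WT for *AT3G29970*, still called. For *AT1G33055*, which had a strong signal in ZE already, the difference was 0.67 in *vtc2* (-0.01 to 1.35, adjusted p = 0.105) and 0.41 in WT (-0.26 to 1.09, adjusted p = 0.317).

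From D14I to SE the 3 genes had different courses. This comparison had 22.5% of probe sets called in *vtc2* and 14.7% in WT. *AT1G33055* rose in *vtc2* by a log2 difference of 1.68 (1.01 to 2.36, adjusted p = 0.00275) and had a difference of 0.01 in WT (-0.67 to 0.68, adjusted p = 0.993). *AT5G10040* had a difference of 0.56 in *vtc2* (-0.55 to 1.67, adjusted p = 0.436) and fell in WT, with a log2 difference of -1.75 (-2.87 to -0.64, adjusted p = 0.0342). *AT3G29970* had a difference of -1.26 in *vtc2* (-3.84 to 1.33, adjusted p = 0.452) and of -2.95 in WT (-5.53 to -0.36, adjusted p = 0.108). The difference between genotypes in this step is the one tested above for SE against D14I, and it did not pass.

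The fall of *AT5G10040* in WT lost its call without either WT D14I array (adjusted p = 0.130 without replicate 1 and 0.129 without replicate 2), either WT SE array (0.134 and 0.0627) or either *vtc2* D7I array (0.0507). For *AT3G29970* the WT difference was called without WT SE replicate 2 (log2 -4.49, adjusted p = 0.0303) and was -1.41 without WT SE replicate 1 (adjusted p = 0.471). The rise of *AT1G33055* in *vtc2* kept its call without any 1 of the 16 arrays.

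Set against ZE, mature somatic embryos had more transcript of all 3 genes in *vtc2*, and of 2 in WT. In this comparison 28.3% of probe sets were called in *vtc2* and 27.6% in WT. The log2 differences (SE minus ZE) in *vtc2* were 2.35 for *AT1G33055* (adjusted p = 0.000236), 5.74 for *AT5G10040* (2.24e-05) and 8.69 for *AT3G29970* (0.000286). In WT they were 0.42 for *AT1G33055* (0.323, not called), 3.17 for *AT5G10040* (0.000794) and 6.32 for *AT3G29970* (0.00197). Each of these 5 calls was kept without any 1 array. The WT size for *AT3G29970* was 7.87 without WT SE replicate 1 and 4.78 without replicate 2, and 7.91 and 4.73 without WT ZE replicate 1 and replicate 2 (adjusted p at most 0.0149), and in a fit of the compared groups only it was not called (0.0910). With 30 added to every signal the differences were 4.46 in *vtc2* and 2.25 in WT for *AT5G10040*, and 5.81 in *vtc2* and 3.83 in WT for *AT3G29970*, still called.

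**Figure D3:**
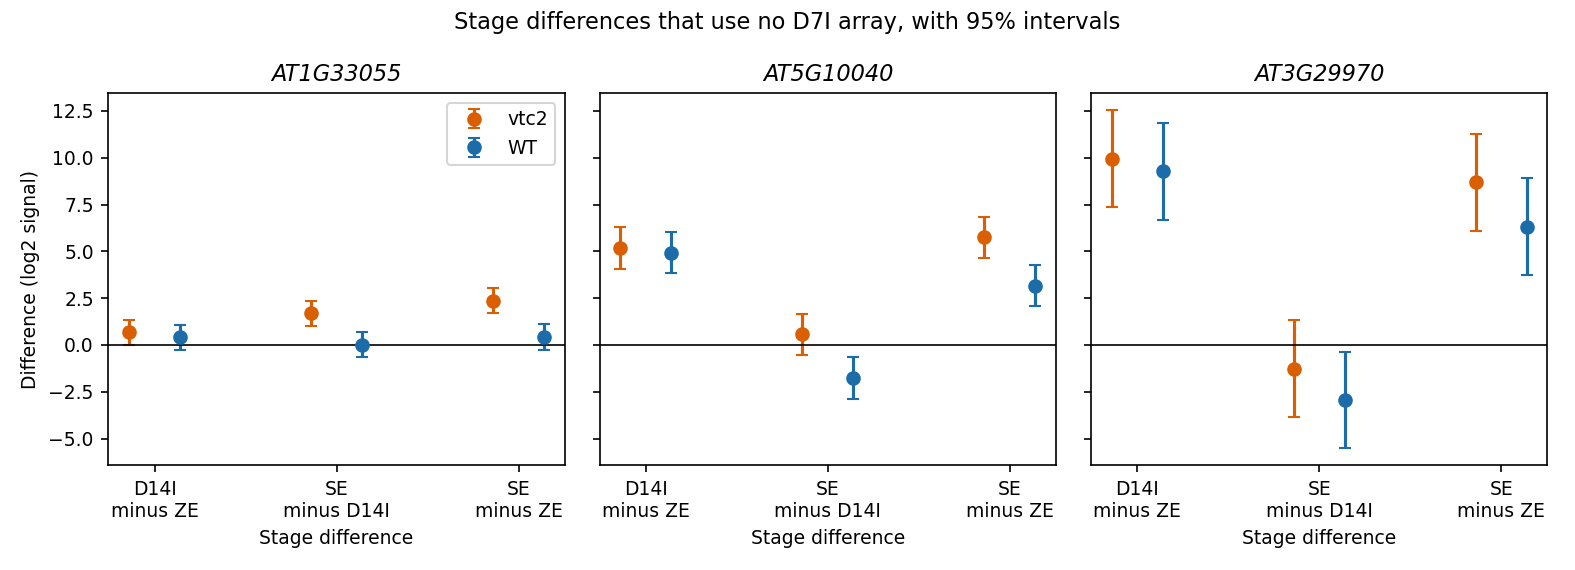
Differences between stages within each genotype (log2 signal, later minus earlier stage) for *AT1G33055*, *AT5G10040* and *AT3G29970*, with 95% intervals, *vtc2* left of WT. Only the ZE, D14I and SE groups enter these differences. The intervals of *AT5G10040* and *AT3G29970* for D14I minus ZE lie well above 0 in both genotypes, at 5.18 and 9.94 in *vtc2* against 4.93 and 9.27 in WT, whereas those of *AT1G33055* reach or cross 0.

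The wider low-oxygen response was followed through 46 further genes in lists of fermentation and sugar use, oxygen sensing and regulators, and other core low-oxygen genes. The annotation used here pairs 16 of them with a probe set, 2, 1 and 13 of the lists in that order, and the other 30 were not analysed here. At D7I, where 1.98% of all probe sets were called higher and 0.717% lower in *vtc2*, 4 of the 16 were called higher and 0 lower. The median of the 16 was 1.19 on the log2 scale against 0 for all probe sets, and 15 of them had a positive difference. The arrays of the genotypes did not overlap for 15 of the 16, beside 56.1% of all probe sets. These lists were written with earlier results of these data known.

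Among the 4, *HRA1* had signals of 227 and 206 in *vtc2* at D7I against 53.4 and 67.3 in WT, with a log2 difference of 1.85 (adjusted p = 0.0202). *AT1G19530* had 753 and 465 in *vtc2* against 122 and 57.1 in WT, and a difference of 2.83 (adjusted p = 0.0233). *AT4G33560* had 2208 and 2411 in *vtc2* against 513 and 744 in WT, and a difference of 1.90 (adjusted p = 0.0202). *AT4G27450*, with 8623 and 6987 in *vtc2* against 3770 and 2738 in WT, differed by 1.27 (adjusted p = 0.0371). The groups were apart for each of these genes. Yet each of these calls was lost without either *vtc2* D7I array. *HRA1* and *AT4G33560* also lost theirs without WT D7I replicate 1, *AT1G19530* without replicate 2, and *AT4G27450* without either. The call of *AT4G27450* was lost as well without any 1 of the D14I or *vtc2* SE arrays. Fewer of all probe sets were also called in these fits.

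Of the 8 genes on the list of fermentation and sugar use, 2 have a probe set in the annotation used here, and neither was called between genotypes at any stage. The other 6, *ADH1*, *PDC1* and sucrose synthase genes among them, were not analysed here, so that the 2 genes do not stand for the list. *PDC2*, a pyruvate decarboxylase, which makes the acetaldehyde that is reduced to ethanol, had signals of 2085 and 1972 in *vtc2* against 2237 and 2196 in WT at D7I. Its log2 difference was -0.13 (-0.60 to 0.34, adjusted p = 0.792), an interval that excludes a 2-fold change. The second gene of this list, *AT4G17260*, had a difference of 0.52 (0 to 1.04, adjusted p = 0.247). In SE the differences were -0.46 for *PDC2* (adjusted p = 0.206) and 0.10 for *AT4G17260* (adjusted p = 0.837).

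In SE 5 of the 16 listed genes were called higher in *vtc2* and 0 lower, beside 1.69% of probe sets called higher and 2.15% lower. Their median was 0.96 against -0.15 for all probe sets, 15 differences were positive, and the genotypes were apart for 14, beside 51.3% of all probe sets. *AT3G23170* had 2524 and 1969 in *vtc2* SE against 273 and 337 in WT SE, a log2 difference of 2.88 (adjusted p = 0.00498). *CML38*, a calmodulin-like calcium sensor, had 958 and 1227 in *vtc2* SE against 134 and 158 in WT SE, a difference of 2.90 (adjusted p = 0.0178). *AT4G10270* had 11358 and 9648 in *vtc2* SE against 2573 and 3530 in WT SE, a difference of 1.80 (adjusted p = 0.0177). The other two were *HRA1*, with a difference of 1.45 (adjusted p = 0.0312), and *AT4G24110*, with 1.31 (adjusted p = 0.0387).

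*HRA1* was thus called both at D7I and in SE, and the remaining calls at these stages fell on different listed genes. *CML38* had a D7I difference of 1.58 (adjusted p = 0.108), and *AT1G19530* had an SE difference of 0.22 (adjusted p = 0.836). Most of the SE calls were lost without WT SE replicate 1 or either *vtc2* SE array, and fewer of all probe sets were called in these fits too. *HRA1* also lost its SE call without WT SE replicate 2 or either *vtc2* D7I array. *AT4G24110* lost its SE call without any 1 of the D14I or *vtc2* ZE arrays as well. Its difference was 0.92, under 2-fold, without WT SE replicate 1. Tested as a difference of differences, the genotype difference of *AT3G23170* was larger in SE than in ZE by 3.11 (adjusted p = 0.0323) and than at D7I by 2.12 (adjusted p = 0.0148). For *AT1G19530*, whose *vtc2* ZE signals were only 11.3 and 32.6, it was larger at D7I than in ZE by 4.16 (adjusted p = 0.0465). The SE minus D7I difference of this gene was -2.61 (adjusted p = 0.0419). For D7I against ZE 0.462% of probe sets were called, and for SE against D7I 11.4%. These calls were lost without 1 of several arrays, with adjusted p up to 0.145. The SE call of *AT3G23170* was kept without any 1 of the 16 arrays, at an adjusted p of at most 0.0342.

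Before induction and at D14I no listed gene was called between genotypes in either direction, beside 0.0352% and 0.022% of all probe sets called. In ZE the median of the 16 was -0.31 against -0.01 for all probe sets, and at D14I it was -0.06 against 0.02. The differences of the 16 genes at D14I ran from -0.60 to 0.31. The arrays of the genotypes were apart for 4 of the 16 in ZE, beside 33.2% of all probe sets, and for 6 at D14I, beside 41.0%.

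Between stages the listed genes moved as follows. From ZE to D7I in WT, 3 of 16 were called higher and 8 lower, with 15.7% of probe sets called higher and 12% lower, and the median of the 16 was -0.91. In *vtc2* the same step had 6 called higher and 3 lower, with 18% of probe sets called higher and 12.1% lower, and a median of 0.34. Among the lower ones in WT *HRA1* (log2 -3.14, adjusted p = 4.13e-05), *CML38* (-2.88, adjusted p = 0.00132), *AT3G23170* (-2.69, adjusted p = 7.48e-05) and *AT3G10020* (-2.53, adjusted p = 0.000504) differed most. *AT1G33055* also had its lowest level at this stage, with a difference of -4.65 (WT D7I minus ZE), while *AT5G10040* had 0.33 and *AT3G29970* had 4.46, given as descriptions. *PDC2* and *AT4G17260* were higher at D7I than in ZE, by 2.45 (adjusted p = 1.85e-05) and 1.64 (adjusted p = 0.000424) in WT.

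From D7I to D14I in WT, 14 of 16 were called higher and 0 lower, with 4.15% of probe sets called higher. All 16 differences were positive, beside 3.79% of probe sets called lower, with a median of 2.33 against -0.03 for all probe sets. The largest among the called were *AT1G19530* (3.96), *AT5G66985* (3.92), *AT2G17850* (3.55) and *AT3G23170* (2.87), with adjusted p between 0.000766 and 0.00336. In *vtc2* the same step had 4 called higher and 0 lower, with 1.51% of probe sets called higher and 2.39% lower, and a median of 0.88. The WT count was 10 without WT D14I replicate 1, and the *vtc2* count was 0 without *vtc2* D7I replicate 2 or either *vtc2* D14I array. The difference between genotypes in this step was called in limma for 0 of the 16 and for 0.0132% of probe sets, while 2538 probe sets had an unadjusted p under 0.05.

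From D14I to SE the listed genes had 4 called higher and 2 lower in *vtc2*, against 0 higher and 7 lower in WT. Of all probe sets 11.3% were called higher and 11.2% lower in *vtc2*, against 9.96% higher and 4.76% lower in WT. In *vtc2* the 4 were *CML38* (3.66, adjusted p = 0.000649), *HRA1* (2.04, adjusted p = 0.00115), *AT3G23170* (1.84, adjusted p = 0.00146) and *AT4G10270* (1.32, adjusted p = 0.00934). The 2 lower ones in *vtc2* were *AT4G17260* (-1.43, adjusted p = 0.00172) and *PDC2* (-1.08, adjusted p = 0.00403). *AT3G23170* moved the other way in WT (-1.34, adjusted p = 0.00998), and the difference between genotypes in this step was called for this gene, at 3.18 (2.26 to 4.10, adjusted p = 0.0315). This last call was kept in 5 of the 16 fits that left out 1 array, with an adjusted p of up to 0.148. The WT count of 7 was 3 without WT D14I replicate 1 or WT SE replicate 1.

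Against ZE, 9 listed genes were higher at D14I in *vtc2* and 8 in WT, and 0 were lower in either. Of all probe sets 32.9% were called in *vtc2* and 32.8% in WT, 19.3% and 18.8% as higher and the rest as lower. The largest differences came from *AT4G39675*, at 10.75 in *vtc2* and 9.14 in WT, whose ZE signals of 0.845 and 2.72 in *vtc2* and 19.2 and 0.992 in WT are too weak to fix a size. *AT1G19530* differed by 6.16 in *vtc2* (adjusted p = 9.32e-06) and 4.75 in WT (adjusted p = 4.86e-05). Its ZE signals of 11.3 and 32.6 in *vtc2* are weak or near it, so that the *vtc2* size is uncertain too. *PDC2* differed by 3.25 in *vtc2* (adjusted p = 2.47e-06) and 2.83 in WT (adjusted p = 5.49e-06). In SE against ZE, 11 were higher and 0 lower in *vtc2*, and 6 were higher and 1 lower in WT. Of all probe sets 28.3% were called in *vtc2*, 16.0% as higher and the rest as lower. In WT 17.2% were called higher and 10.3% lower.

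**Figure D4:**
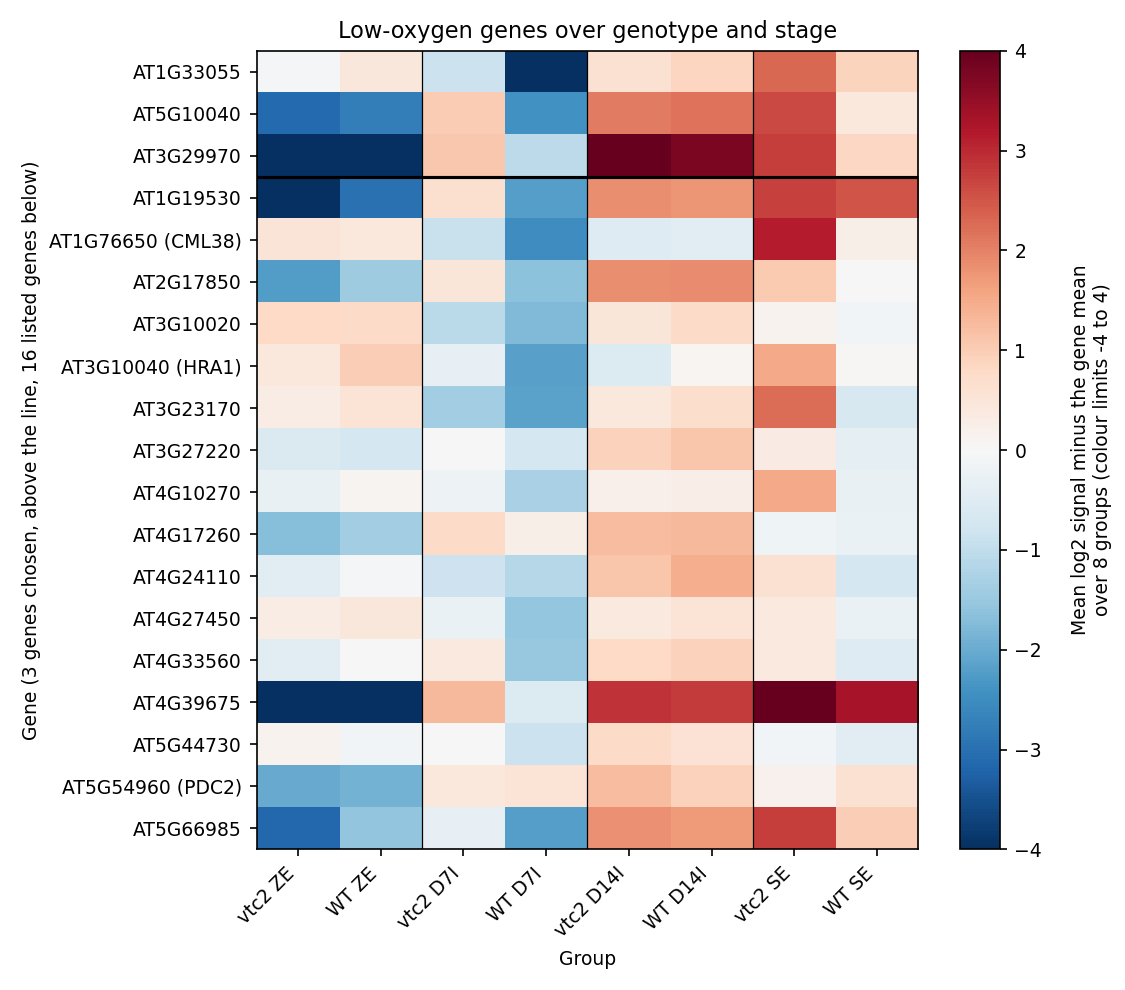
Mean log2 signal of each group minus the gene's own mean over the 8 groups, for *AT1G33055*, *AT5G10040* and *AT3G29970* above the line and the 16 other low-oxygen genes below, with *vtc2* left of WT at each stage. Colours stop at -4 and 4. The WT D7I column is the lowest for *AT1G33055*, *HRA1*, *CML38* and *AT3G23170*, which are also highest in the *vtc2* SE column.

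Genes listed under alternative respiration, which carries electrons past the pumping complexes of the mitochondrion, had another pattern. Of 4 listed, *NDB2*, an external NAD(P)H dehydrogenase of that route, and *AT2G21640* have a probe set in the annotation used here. Whether *AT2G21640* itself takes part in that route was not tested, so that only *NDB2* stands for it. *NDB2* had signals of 1126 and 1351 in *vtc2* at D7I against 2116 and 2026 in WT, and a log2 difference of -0.75 (adjusted p = 0.0466, under 2-fold and so not called). *AT2G21640* differed by -0.04 (adjusted p = 0.960). Both genes were higher at D14I than in ZE and lower in SE than at D14I in each genotype, and in each genotype both had their highest mean at D7I, the stage at which *AT1G33055* was lowest. The annotation used here pairs none of the 4 listed genes of sugar starvation with a probe set, and they were not analysed here.

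The 3 genes did not share 1 profile over the 16 arrays. The correlation of log2 signals was 0.876 between *AT5G10040* and *AT3G29970*, 0.552 between *AT1G33055* and *AT5G10040*, and 0.255 between *AT1G33055* and *AT3G29970*. The 16 points share genotype, stage and array, so that these values are descriptions. Among 9619 probe sets with 1 gene and a mean signal above 30, those most like *AT1G33055* were *AT3G47000* (r = 0.922), *AT4G04630* (0.896), *AT2G47200* (0.890), *AT3G48185* (0.884) and *APS4*, an ATP sulfurylase of sulfate assimilation (0.883).

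The profile of *AT5G10040* was closest to *AT5G66985* (r = 0.951) and *AT2G17850* (0.947), both on the list of core low-oxygen genes, and then to *AT5G65260*, *AT1G47480* and *AT2G35605* (0.928 each). The level of *AT5G66985* was 112 and 38.0 in *vtc2* ZE, 478 and 442 at D7I, 2025 and 2057 at D14I, and 3815 and 4028 in SE. In WT it was 147 and 257 in ZE, 145 and 107 at D7I, 1718 and 2085 at D14I, and 868 and 1545 in SE. Like *AT5G10040*, it was apart between genotypes at D7I and in SE, but its differences of 1.88 (adjusted p = 0.0615) and 1.76 (adjusted p = 0.0550) were not called. *AT3G29970* was closest to *AT1G79520* (r = 0.975), *AT5G26280* (0.968), *AT2G36930* (0.965), *AT4G25790* (0.964) and *AT5G62900* (0.956), none of them on a list used here.

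The listed genes differed in which of the 3 they resembled most. *AT3G23170* (r = 0.867), *HRA1* (0.857), *AT4G27450* (0.851), *AT4G10270* (0.849) and *CML38* (0.823) correlated above 0.8 with *AT1G33055*, and their correlations with *AT3G29970* were between -0.138 and 0.356. *AT4G39675* (0.946), *AT1G19530* (0.895), *PDC2* (0.888), *AT2G17850* (0.873), *AT4G17260* (0.845) and *AT5G66985* (0.826) correlated above 0.8 with *AT3G29970*. Their correlations with *AT1G33055* were between -0.053 and 0.501 except for *AT5G66985*, at 0.653. *AT1G19530*, *AT2G17850* and *AT5G66985* correlated as much or more with *AT5G10040* (0.906, 0.947 and 0.951). The other listed genes were less clearly divided. *AT3G10020* (0.733), *AT4G24110* (0.626) and *AT5G44730* (0.527) correlated most with *AT1G33055*, and at -0.142, 0.545 and 0.294 with *AT3G29970*. With *AT5G10040* they correlated at 0.104, 0.61 and 0.507, so that *AT4G24110* and *AT5G44730* were almost as close to that gene. *AT3G27220* (0.837) and *AT4G33560* (0.72) correlated most with *AT5G10040*, though *AT4G33560* was almost as close to *AT1G33055* (0.69).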

How the data were processed

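Total RNA of 16 samples was amplified, labelled with biotin and hybridized to ATH1 GeneChips. The deposited table holds 1 linear intensity per probe set and array. The authors had scaled each array to a 2% trimmed mean of 500. The submitters' processing notes name GCOS, and the RMA values described in the methods are not in the table.

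Intensities were taken to log2 without an offset. limma 3.58.1 in R 4.3.3 fitted 1 mean for each of the 8 groups over all 16 arrays, with 8 residual and 1.62 prior degrees of freedom. The multiclass SAM of the methods tests all groups at once, D7I included, and was not used. P values were adjusted over 22746 of 22810 probe sets, which left out 64 controls. Where a replicate was left out, the lone array of its group was assumed to vary like the other groups. The number of arrays limits the precision. The procedure was tested on simulated data.

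In the annotation 13513 probe sets have 1 gene, 503 have several, and 8730 have none. Locus codes and symbols follow RefSeq (TAIR10.1). The files name no genome build, so that no coordinates are given, and no sequences were used here.

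The genes described and all lists were chosen with earlier results of these data known. Genes named are the 3 genes, listed low-oxygen genes called between genotypes, up to 4 examples per list in a stage comparison, by the largest difference, listed genes of highest mean signal where none was called, and the 5 genes most correlated with each. *AT5G66985* was followed by array, and the listed genes were named by their correlations with the 3 genes, after their values were seen. The labels do not say how the biological replicates were kept apart, so that p values measure only the spread between these samples.

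Alternatives were quantile normalization, a filter on signals under 30, array weights, an offset of 30, median centring, the replicate number as a block, a trended prior, 1 probe set per gene, a fit with only the compared groups, each threshold alone, and leaving out each array.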

Additional observations from a re-analysis of the deposited data

Results flagged for a closer look

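For *AT1G33055* every *vtc2* array lay above every WT array at D7I, and every *vtc2* array lay below every WT array in ZE and at D14I. The genotypes were apart in this way, in either direction, for 56.1% of all probe sets at D7I, 33.2% in ZE and 41% at D14I. The differences of this gene in ZE (-0.52) and at D14I (-0.26) were not called. The log2 difference between genotypes was larger by 3.84 at D7I than in ZE, and by 3.59 at D7I than at D14I. These differences between stages were not tested, because the D7I arrays chose the gene.

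For 2 listed low-oxygen genes the genotype difference itself differed between stages in limma. *AT1G19530* had a larger difference at D7I than in ZE, by 4.16 on the log2 scale (2.57 to 5.74, adjusted p = 0.0465), and in ZE its signals were 11.3 and 32.6 (*vtc2*) against 48.8 and 47.9 (WT). The SE difference minus the D7I difference was -2.61 (-4.20 to -1.02, adjusted p = 0.0419). These calls were kept in 4 and 2 of the 16 fits that left out 1 array, with adjusted p up to 0.145 and 0.127, and the losses include the D14I arrays, which enter only through the spread.

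*AT3G23170* had a larger difference in SE than at D7I by 2.12 (1.20 to 3.04, adjusted p = 0.0148), than at D14I by 3.18 (2.26 to 4.10, adjusted p = 0.0315) and than in ZE by 3.11 (2.19 to 4.03, adjusted p = 0.0323). In ZE *vtc2* had signals of 606 and 551 for it, against 643 and 720 in WT, and at D14I *vtc2* had 634 and 615, against 799 and 741 in WT. The calls were kept in 13, 5 and 7 of the 16 fits that left out 1 array, with adjusted p up to 0.0544, 0.148 and 0.110. The first was lost without WT D7I replicate 1, *vtc2* D7I replicate 2 or *vtc2* SE replicate 1.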

How the results depend on the processing

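The tested differences of the 3 genes and their D7I descriptions were counted together. A tested value is the same where it kept its direction and its side of the threshold. D7I values have no threshold and are the same where they moved by less than the spread between replicates. Under an alternative, 255 of the values were the same, 10 lost the call, 2 gained it, 1 changed direction and 2 D7I values moved by more than that spread. When 1 array was left out, 448 were the same, 24 lost the call, 1 gained it and 7 changed direction, all 7 in differences that were never called. The filter, array weights, trended prior, block, 1 probe set per gene and the compared groups left the log2 differences as they were. So did leaving out an array outside the compared groups. Much of this agreement was thus fixed in advance, and the counts do not measure how robust the differences are. The SE difference of *AT1G33055* was 0.89 with quantile normalization (adjusted p = 0.107), 1.42 with array weights (0.0972) and 1.42 with only the compared groups fitted (0.360), and was not called. That of *AT5G10040* was 2.21 with array weights (0.0980), with the replicate block (0.0513) and with only the compared groups fitted (0.353). The WT SE minus D14I difference of *AT5G10040* was -1.75 with array weights (0.0537), the replicate block (0.0502) and only the compared groups (0.0589). For *AT3G29970* the WT SE minus D14I difference was called with the offset (-2.83, adjusted p = 0.00581), the *vtc2* SE minus D14I difference with only the compared groups (-1.26, 0.0332), and the WT SE minus ZE difference lost its call with only the compared groups (6.32, 0.0910). The WT SE minus D14I difference of *AT1G33055* was -0.27 with median centring. The fit of compared groups has fewer arrays behind its spread. Between genotypes it called 0% of all probe sets at each stage, so that no gene could keep such a call. For the other alternatives the cause was not tested. The D7I description of *AT5G10040* was 3.31 with median centring and 2.66 with the offset. Among listed genes the D7I count of 4 higher was 8 with the offset, 7 with array weights, 7 with a trended prior, 0 with only the compared groups and 9 by 2-fold alone. These counts moved with the calls over all probe sets. At D7I 2.70% were called, against 4% with the offset, 5.3% with array weights, 4.35% with a trended prior and 0% with only the compared groups. The share by 2-fold alone was not counted. The SE count of 5 higher was 1 with array weights, 0 with only the compared groups and 8 by 2-fold alone, and the ZE count of 0 lower was 3 by 2-fold alone. In SE 3.84% of all probe sets were called, against 0.409% with array weights and 0% with only the compared groups.

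Leaving out each array gave ranges of 1.18 to 1.65 for *AT1G33055* and 2.00 to 2.42 for *AT5G10040* in SE, called in 7 of 16 fits each. It gave 0.40 to 3.48 for *AT3G29970* in SE, -1.97 to -1.54 for *AT5G10040* and -4.49 to -1.41 for *AT3G29970* in WT SE minus D14I, and 0 to 6 (D7I) and 1 to 6 (SE) listed genes called higher. Differences that changed direction ran from -0.13 to 0.14 for *AT1G33055* in WT SE minus D14I, from -2.02 to 1.16 for *AT3G29970* and -1.19 to 0.49 for *AT5G10040* between genotypes in ZE, and from -0.30 to 0.10 for *AT5G10040* between genotypes at D14I.

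The labels number the replicates alike in every group, but do not say whether arrays with the same number were handled together. Over 28 pairs of groups the deviations of replicate 1 from the group mean correlated at -0.137 to 0.165 (median -0.0216), and 3 pairs exceeded 0.1. Such correlations cannot settle how the samples were handled. With the replicate number as a block the SE difference of *AT1G33055* was 1.42 (adjusted p = 0.0401), and that of *AT5G10040* was 2.21 and not called (0.0513). Beside 1.75% of all probe sets called at D7I and 2.89% in SE, 4 listed genes were called higher at D7I and 4 in SE. These are not all the genes named above, since *AT4G27450* lost its D7I call (0.0585) and *AT4G24110* its SE call (0.0554). ZE signals that are weak or near it limit the sizes given for *AT5G10040* and *AT3G29970*.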
